A study of Drosophila melanogaster with 2 samples.

Results

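Intergenic regions are entries of the authors' pooled list for tagged Crg-1 that lay between genes and away from any annotated start of transcription. They were taken from the 10000 regions of highest signal in that list of 30000 candidates, which the authors labelled as peaks and background. An entry is thus a candidate and not by itself a site of enrichment. A region counted as intergenic when its summit, the position of highest signal, lay outside every gene of the Ensembl annotation without transposable elements and more than 500 bp from any start site. This held for 644 of the 10000 regions, which formed 606 separate sites after overlapping entries were merged. Of these, 182 were in the set that the authors kept by irreproducible discovery rate, a test on the order of regions in both replicates, and are called thresholded here, and 462 were not and are reported apart. The other classes were 2986 deep intronic, 500 exonic and 5870 promoter-proximal regions. Deep intronic and exonic summits lay inside a gene and more than 500 bp from a start site, and promoter-proximal summits lay within 500 bp of one.

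The data came from chromatin immunoprecipitation with sequencing. The material was whole adults of Drosophila melanogaster, males and females together, of unknown age. All flies were of the strain Crg-1-GFP, a transgenic line that stably expresses Crg-1 with GFP at its C terminus, and the antibody was against GFP. Chromatin was sonicated to a labelled size range of 200 to 800 bp. The 2 libraries, biological replicates 2 and 3, form 1 group, come from separate biosamples of 1 line, and were called by the authors against the same control. No untagged flies were analysed here and no condition was compared, so the comparisons are between classes of regions within the same libraries. The level and the cells in which the transgene is expressed are not given in the labels, and whole flies mix all tissues. Read depth is unknown, and the spread between replicates is shown by their ranks.

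Crg-1 belongs to the forkhead family, transcription factors that bind DNA through a winged-helix domain and recognise AT-rich words. Intergenic DNA of the fly holds enhancers, which raise transcription of genes at a distance, and insulators, which limit which genes an enhancer can reach. The zinc-finger proteins CTCF and Su(Hw) are the best known insulator factors with a DNA word of their own.

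The sequences below run from 50 bases before to 50 bases after the summits of thresholded intergenic regions, chosen by a fixed rule as the strongest with and without the words that the results turn on, among the chromosome arms from which sequence is shown. They are read from the RefSeq Release 6 genome (dm6), plus strand, 5′ to 3′. Capitals mark the forkhead core GTAAACA and the CTCF core AGNNGGCGC on either strand. TGTTTAC and the capitals that begin with GCGCC are these words read on the minus strand. The region by the CG31668 start, the strongest of all, and that by sp3 hold neither word in capitals.
CG31668, chr2L:2202389-2202489: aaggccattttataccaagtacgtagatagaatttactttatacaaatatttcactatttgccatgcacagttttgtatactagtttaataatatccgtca
jp, chr2L:9567468-9567568: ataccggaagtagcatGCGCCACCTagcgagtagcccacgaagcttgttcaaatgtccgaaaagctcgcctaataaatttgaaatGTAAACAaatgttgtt
sp3, chr3R:21520298-21520398: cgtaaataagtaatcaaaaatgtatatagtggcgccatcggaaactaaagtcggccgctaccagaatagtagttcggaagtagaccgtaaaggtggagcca
CG5973, chr2L:7436920-7437020: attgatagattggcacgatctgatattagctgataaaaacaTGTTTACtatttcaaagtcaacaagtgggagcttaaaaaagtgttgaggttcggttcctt
CG46462, chr3L:19933134-19933234: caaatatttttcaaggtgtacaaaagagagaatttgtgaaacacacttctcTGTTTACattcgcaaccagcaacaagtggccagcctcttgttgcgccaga
CG13306, chr3L:8749007-8749107: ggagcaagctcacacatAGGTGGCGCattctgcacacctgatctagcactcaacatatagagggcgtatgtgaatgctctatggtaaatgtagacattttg
bark, chr2L:3786392-3786492: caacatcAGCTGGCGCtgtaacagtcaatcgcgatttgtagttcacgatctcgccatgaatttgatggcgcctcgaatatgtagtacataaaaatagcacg
sbr, chrX:10832513-10832613: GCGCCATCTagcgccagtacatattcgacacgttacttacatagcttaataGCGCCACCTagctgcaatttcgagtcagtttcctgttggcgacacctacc
Atpalpha, chr3R:20948130-20948230: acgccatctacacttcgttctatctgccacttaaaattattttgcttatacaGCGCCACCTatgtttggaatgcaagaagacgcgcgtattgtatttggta

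Of the 13 words searched, the CTCF core AGNNGGCGC was the only one whose share at thresholded intergenic summits differed from both deep intronic and promoter-proximal summits after widening for the 13. Of 182 thresholded intergenic regions 18, or 9.89%, held it no more than 50 bp from the summit (95% Wilson interval 6.35 to 15.1). Flanking windows of equal size, centred 500 bp from the summit, held it in 2 cases, or 1.10%. The difference of 8.79 percentage points had a 95% interval of 3.98 to 13.4, and of 1.74 to 15.7 when widened to 99.6% for the 13 words searched. Across all 10000 top regions the share was 1.78%, and over all 30000 pooled windows it was 1.35%.

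The thresholded intergenic share of the CTCF core exceeded that of thresholded deep intronic summits, 14 of 796 or 1.76%, by 8.13 points (95% interval 4.40 to 13.4, and 3.02 to 16.4 widened for the 13 words). Against thresholded promoter-proximal summits, with 47 of 2628 or 1.79%, it was higher by 8.10 points (4.51 to 13.3, widened 3.28 to 16.4). Thresholded exonic summits held it in 5.94% (2.75 to 12.4), and there the difference of 3.95 points (−3.38 to 10.1) was not larger than counting error. These intervals cover counting error over regions only.

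Intergenic regions outside the thresholded set held the CTCF core less often, in 14 of 462 or 3.03% (1.81 to 5.02), against 0.649% in their flanks, an excess of 2.38 points (0.592 to 4.15) whose widened interval includes 0 (−0.253 to 4.99). Thresholded regions exceeded them by 6.86 points (95% interval 2.80 to 12.2, widened 1.11 to 15.3). The weaker regions exceeded the deep intronic regions outside the set, at 0.868%, by 2.16 points (0.853 to 4.18, widened 0.381 to 5.46). Against promoter-proximal regions outside the set, at 1.60%, the difference was 1.43 points (0.113 to 3.45), and widened it included 0 (−0.349 to 4.73). Exonic regions outside the set held the CTCF core in 8 of 399, or 2.01% (1.02 to 3.91).

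The CTCF words lay at the summits themselves. In the thresholded regions 39 such words were centred within 300 bp of a summit, and 24 of them within 50 bp. The 18 regions were 18 separate sites on 5 arms, with signals from 116.8 to 588.1 and a median of 141.3. Genes on both sides pointed away from the region in 9 of the 18, against 57 of all 182 thresholded intergenic regions, or 31.3%. The strongest lay 768 bp upstream of jp, which encodes a junctophilin that ties the cell surface membrane to the endoplasmic reticulum, and the sequence shown above holds its CTCF word 30 bp before the summit and a forkhead word 38 bp after it. That region had a signal of 588.1, with ranks of 102 in replicate 2 and 86 in replicate 3. The region nearest to bark, a gene for a protein of cell corners in epithelia, had a signal of 215.5 and ranked 1065th and 1393rd in replicates 2 and 3. The region nearest to sbr, which encodes an mRNA export factor, carried a pair of CTCF words, had a signal of 177.6 and ranked 1644th and 1814th. That of Atpalpha, the catalytic subunit of the sodium pump, lay 534 bp upstream, with a signal of 172.5 and ranks of 1377 and 2277. Other genes nearest to a region of this kind were slbo, a C/EBP factor needed for border cell migration, with a signal of 121.8, Men, the malic enzyme gene, with 116.8, and the forkhead-family gene CHES-1-like with 124.1. A match is a run of letters, and whether CTCF binds there was not measured.

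**Figure D1:**
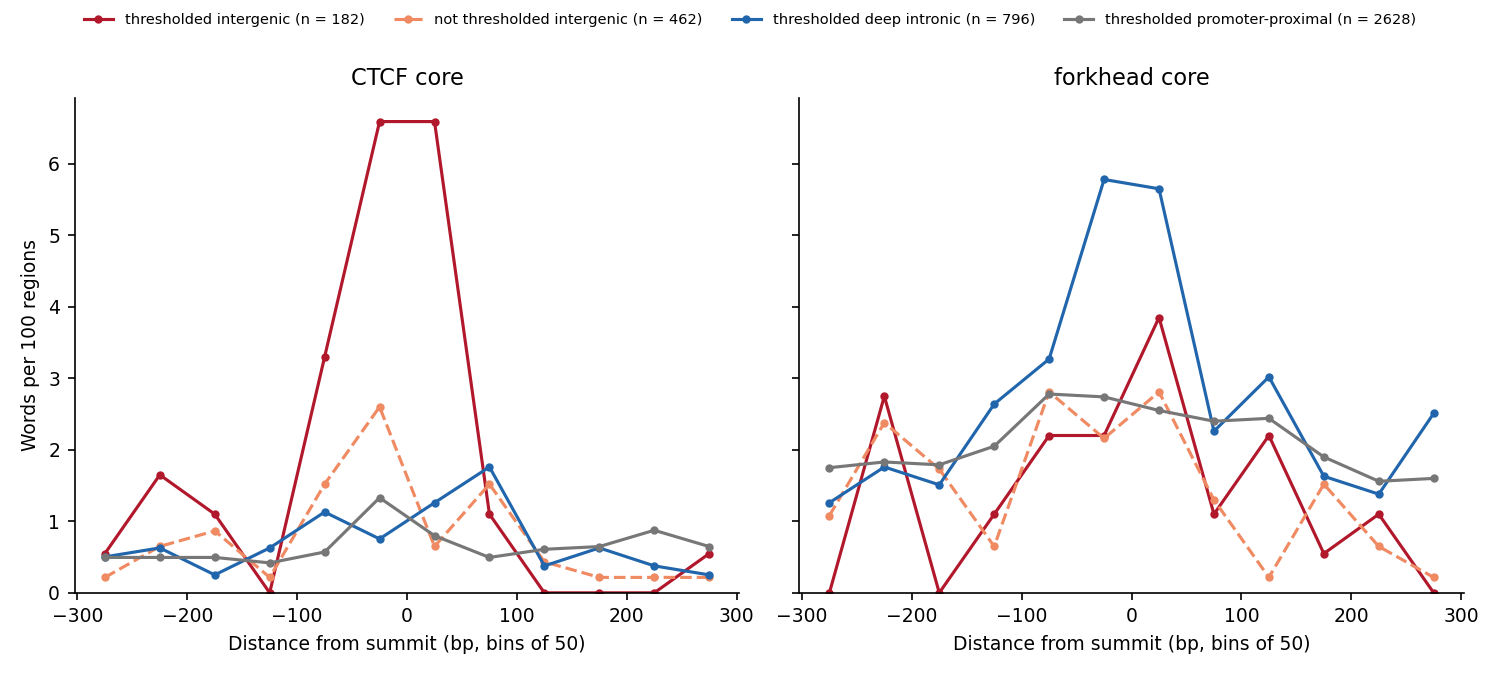
Words per 100 regions (vertical axis) by distance from the summit in bp, in bins of 50 (horizontal axis), for the CTCF core on the left and the forkhead core on the right. Lines are thresholded intergenic regions (n = 182), intergenic regions that are not thresholded (n = 462), thresholded deep intronic regions (n = 796) and thresholded promoter-proximal regions (n = 2628). CTCF words reach 6.59 per 100 thresholded intergenic regions in each of the bins beside the summit, whereas forkhead words are most frequent at the thresholded deep intronic summits.

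The core word of the forkhead family, GTAAACA, was less distinct. It stood near 32 of 644 intergenic summits, or 4.97% (3.54 to 6.93), against 5.05% of all 10000 top regions, 3.62% of all 30000 pooled windows and 2.64% in the intergenic flanks. The excess over the flanks was 2.33 points, with a 95% interval of 0.272 to 4.37 that includes 0 when widened for the 13 words (−0.701 to 5.35). Taken apart, it was 3.3 points in the thresholded regions (−0.551 to 7.07) and 1.95 in the others (−0.517 to 4.4). Both of these 95% intervals include 0. Thresholded intergenic regions held it in 10 of 182, or 5.49%, and thresholded deep intronic regions in 9.92%. That difference, −4.43 points (−7.80 to 0.287), was not larger than counting error. The 7-letter comparison word ACAAATG, the same letters read backwards, stood at 3.30% of thresholded intergenic summits and 5.40% of thresholded deep intronic ones.

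A looser form of the forkhead word, RYAAAYA with R for A or G and Y for C or T, occurred at 76 of 182 thresholded summits, or 41.8%, against 28.6% of their flanks. The excess was 13.2 points (4.40 to 21.7). Among the other intergenic regions it was 36.1% against 27.9%, an excess of 8.23 points (2.16 to 14.2). Widened as for the other words, the interval was 0.294 to 25.8 in the thresholded set and included 0 in the other (−0.705 to 17.1). The thresholded share exceeded the other by 5.61 points, within counting error (−2.63 to 14.0). The excess was not particular to intergenic regions. Across all 10000 top regions the shares were 33.2% at summits and 24.8% in flanks. They were 47.9% and 27.8% in thresholded deep intronic regions, and 32.4% and 22.1% in thresholded promoter-proximal ones. Thresholded intergenic summits differed from these 2 classes by −6.11 points (−13.9 to 1.94) and 9.38 points (2.22 to 16.8, widened −0.957 to 20.4).

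Among thresholded regions with the strict forkhead word, the 2 strongest were those of jp and of CG5973, which lay 522 bp upstream of its start with a signal of 471 and ranks of 193 in replicate 2 and 154 in replicate 3. The region shown for CG46462 had a signal of 216.6 and ranks of 1365 and 889. Further genes nearest to such a region were Kr-h1, a zinc-finger gene that responds to juvenile hormone, with 163.7, and fkh, the founder of the family, with 126.5, its region 4457 bp downstream of the start. Of the 182, 27 held a CTCF or a forkhead core, 1 held both, and 153 held none of the CTCF, forkhead and Su(Hw) cores.

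The Su(Hw) core GCATACTTT, the word of the other insulator factor, was more frequent at the weaker summits than in their flanks. It occurred at 10 of 462 intergenic summits outside the thresholded set, or 2.16% (1.18 to 3.94), and in none of their flanks, which allows a share of up to 0.649%, a difference of 2.16 points (0.768 to 3.54, widened 0.109 to 4.20). Deep intronic regions outside the set held it in 4 of 2190, or 0.183%, which was 1.98 points lower (0.957 to 3.76, widened 0.614 to 4.95), and the share over all 30000 pooled windows was 0.350%. Exonic regions outside the set held it in 3 of 399, or 0.752% (0.256 to 2.19). That interval overlaps the intergenic one, and the difference was not tested. In the thresholded set 3 of 182 intergenic summits held it, nearest to Zasp52, Cyp28d1 and CG15282, and that share of 1.65% differed from the 2.16% of the other intergenic regions by less than counting error (−0.516 points, −2.60 to 2.72). Thresholded exonic summits held the Su(Hw) core in 1.98% (0.545 to 6.93). The thresholded intergenic share differed from theirs by −0.332 points (−5.4 to 3.07), within counting error, so the word was not shown to be particular to intergenic regions. The CG15282 region held both insulator words. Of the words of core promoters, the TATA box TATAAA occurred at 19 of 182 thresholded intergenic summits, or 10.4%, and 17% of thresholded promoter-proximal ones (difference −6.61 points, widened −12 to 2.01), and outside the set at 12.8% and 11.7% (1.05 points, 95% interval −1.92 to 4.57). The Dref element TATCGATA occurred at 2 of 182 thresholded intergenic summits, or 1.10%, and 5.33% of thresholded promoter-proximal ones, and the Motif 1 core GGTCACACT at 0 of 182, which allows a share of up to 1.65%, and at 2.05%. Differences for both words had widened intervals that include 0 in the thresholded set. Outside it, the intergenic share was lower by 3.11 points for the Dref element (widened interval of intergenic minus promoter-proximal −4.32 to −0.698) and by 3.02 points for Motif 1 (−4.07 to −0.907).

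The strongest intergenic regions stood high in both replicates and lay near genes of varied function. The rule that selected the members used the pooled signal, so these values are a description. The region of highest signal, 871.8, covered chr2L:2202214-2202578 in the gap between COX7AL2, named for a subunit of cytochrome c oxidase, and CG31668. Its rank was 24 in replicate 2 and 50 in replicate 3. A further thresholded region in the same gap, at chr2L:2201243-2201370, had a signal of 365.1 and ranks of 431 and 233.

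The next strongest, with a signal of 824.7, lay at chr2R:13035197-13035474 in the 36783 bp gap between Su(z)2, a relative of the Polycomb-group gene Psc, and CG13323. Its ranks were 29 in replicate 2 and 54 in replicate 3, and its summit was 11917 bp from the nearest start site. A region 1600 bp upstream of Aldh-III, an aldehyde dehydrogenase gene, followed with 673.9 and ranks of 63 and 89 (chr2R:7478631-7478901). The regions of jp and of sp3, with 478.7 and ranks of 157 and 171, came next.

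Among the 20 strongest, the distance to the nearest protein-coding start ran from 504 to 20687 bp. At noc, a zinc-finger gene of eye and wing development, the strongest region lay 14355 bp downstream of its start and 6869 bp from the nearest start of any kind, that of a non-coding RNA gene, with a signal of 374.9 and ranks of 379 and 281 (chr2L:14505126-14505341). At PGRP-SA, a receptor for bacterial cell wall in the Toll pathway, a region 1147 bp upstream had 315.6 and ranks of 399 and 804 (chrX:11560276-11560715). Others of the 20 strongest lay near RpS15Aa, a ribosomal protein gene, with 344.8, and near RYBP, whose product binds Polycomb proteins, with 311.4. The 20 ran from 305 to 871.8 in signal. Their ranks ran from 24 to 492 in replicate 2 and from 50 to 981 in replicate 3. The nearest start site belonged to a protein-coding gene in 15 and to a non-coding RNA gene in 5. A CTCF core was present in 2 of the 20 and a forkhead core in 2.

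The authors chose the thresholded set on both replicates, so its overlap with them is a description. Of thresholded deep intronic regions 99.7%, and of thresholded promoter-proximal ones 99.6%, overlapped one of the 10000 strongest regions of each replicate. All 182 thresholded intergenic regions did so. The rank was better in replicate 2 for 102 and in replicate 3 for 80, the median ratio of the worse to the better rank was 1.45, and 122 of the 182 stood among the 3707 strongest of both, the number of regions in the thresholded set. For the Rh5 region 656 bp upstream of the start, the ranks were far apart, 9754 in replicate 2 and 1015 in replicate 3. Of the 462 others, 243 or 52.6% (48.0 to 57.1) overlapped one of the 10000 strongest regions of both replicates. Together 425 of 644 did, or 66.0%, against 73.5% of all 10000 top regions. Among the 462 others, 10 overlapped nothing in the whole list of replicate 3 and 2 nothing in that of replicate 2. For all 10000 top regions these counts were 187 and 32. Outside the thresholded set they were 60 and 9 of 2190 deep intronic regions, and 92 and 20 of 3242 promoter-proximal regions.

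Outside the thresholded set, the intergenic share was close to that of deep intronic regions, 53.4%, with a difference of −0.827 points (−5.84 to 4.15). It was 11.4 points below the 64.0% of promoter-proximal regions (−16.2 to −6.59). Because the signal that ranks the pooled list comes from the same libraries, these shares are descriptions and were not tested.

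**Figure D2:**
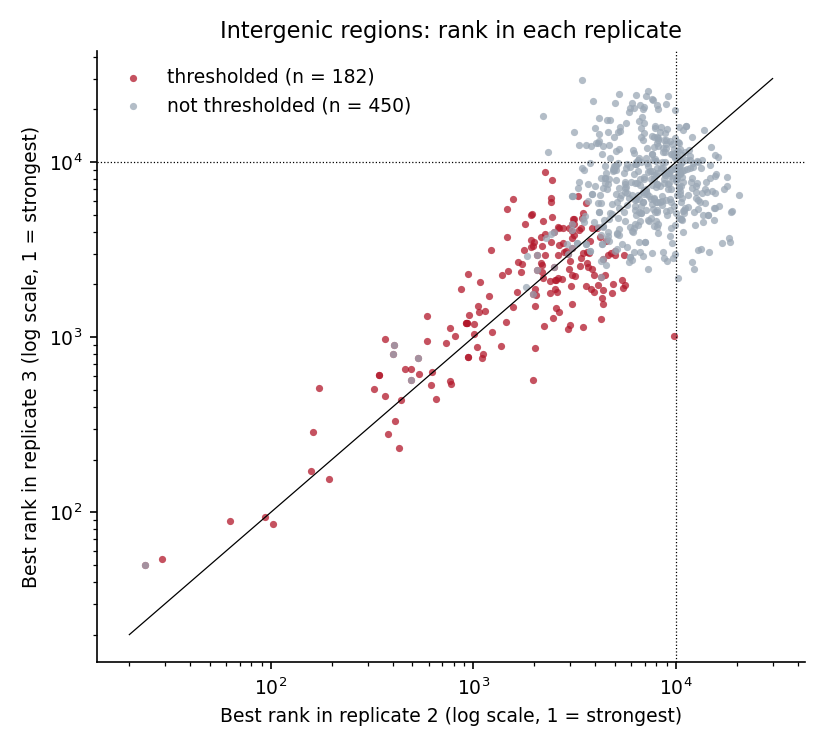
Best rank of a region overlapping each intergenic region in replicate 2 (horizontal axis) and replicate 3 (vertical axis), both on log scales with 1 as the strongest. Points are thresholded regions (n = 182) and regions that are not thresholded but overlap an entry in both lists (n = 450). The solid line marks equal ranks and dotted lines mark rank 10000. The strongest regions lie near the line, down to ranks of 24 and 50, and the points spread around it towards rank 10000, with weaker entries at high ranks where they overlap a strong neighbour.

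Intergenic regions became more frequent down the list. They made up 4.00% of the 1000 strongest regions (2.95 to 5.40) and 8.90% of those ranked 9001 to 10000 (7.29 to 10.8). In the lists the thresholded set consisted of the 3707 regions of highest pooled signal, so membership was a limit on rank. Accordingly 28.3% of the intergenic regions were thresholded, against 37.1% of all 10000, 26.7% of deep intronic and 44.8% of promoter-proximal regions. The pooled signal of thresholded intergenic regions ran from 109.8 to 871.8 with a median of 143.5, and that of the others from 59.05 to 109.6 with a median of 72.82. The weakest thresholded one lay 1316 bp from Vm26Aa, a gene for an eggshell protein, with 109.8.

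The strongest region just outside the threshold lay near Fancm, a DNA repair helicase gene, with 109.6. It was followed by Paics, a purine synthesis gene, with 109.5, by for, the cGMP-dependent protein kinase gene foraging, with 108.7, by ttk, the repressor gene tramtrack, with 108.4, and by Dyro with 108.3. The region near for had ranks of 5842 and 2683 in replicates 2 and 3, and that near ttk 4133rd and 4247th. At the limit of 10000, the last member, near CG32440, had rank 9970 and a signal of 59.05, and the first intergenic region outside, near Myc, had rank 10003 and 58.88. At the limit of 500 bp, the nearest member lay 501 bp from a start of dnt, and a region at exactly 500 bp from CG11899 was left out.

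**Figure D3:**
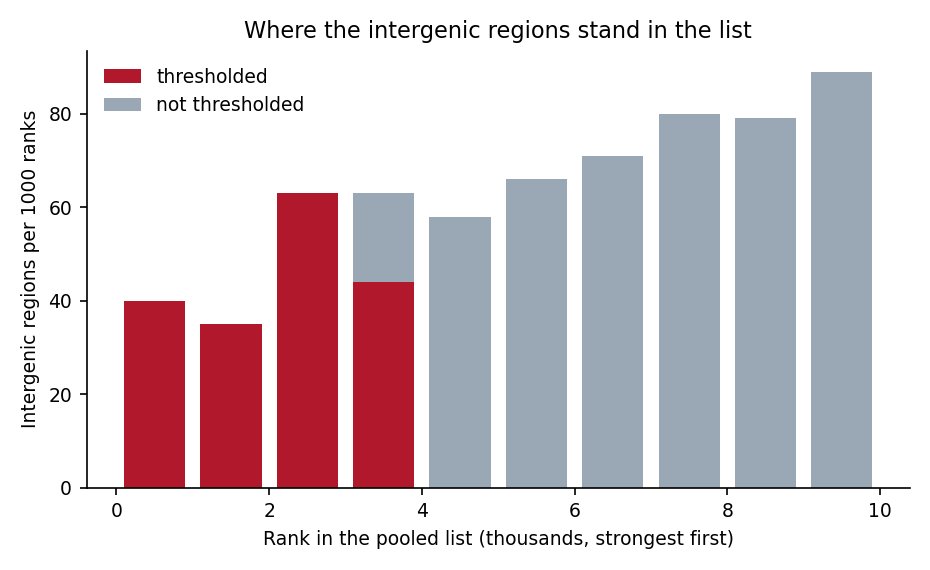
Number of intergenic regions per 1000 ranks (vertical axis) by rank in the pooled list (horizontal axis, in units of 1000 ranks, strongest first), split into thresholded regions and regions that are not thresholded. The bars run from 40 in the first bin to 89 in the last, and thresholded regions end in the fourth bin at rank 3707.

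Intergenic sequence under the rule covered 36.3 Mb, or 27.1% of the length of the 6 arms, and held 6.44% of the top regions. That was 17.8 regions per Mb, against 56.6 in deep introns, 18.9 in exons and 324 near start sites. For thresholded regions the densities were 5.02, 15.1, 3.82 and 145 per Mb. Deep introns held more regions per Mb than intergenic or exonic sequence, in both sets.

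Density fell with distance from the nearest start site. Between 501 and 1000 bp from a start site there were 61.9 intergenic regions per Mb, at 1001 to 2000 bp 37, at 2001 to 5000 bp 21.7, at 5001 to 10000 bp 9.49, and beyond that 2.91. The thresholded regions followed the same order, with 19.1, 8.77, 7.02, 2.09 and 0.785 per Mb. Median distances were 1804 bp for thresholded and 1760 bp for other regions, and the farthest lay 31869 and 37209 bp away. Of all 644, 417 or 64.8% were upstream of the nearest start, against 52.6% of all 10000 top regions. The rule leaves out summits inside genes, so it fixes this share in part. The start nearest to a member belonged to a protein-coding gene in 465, a non-coding RNA gene in 154, a tRNA gene in 17, a pseudogene in 4 and a snoRNA gene in 4. Only 17 of the 644 entries, 8 of them thresholded, overlapped a promoter-proximal top region.

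**Figure D4:**
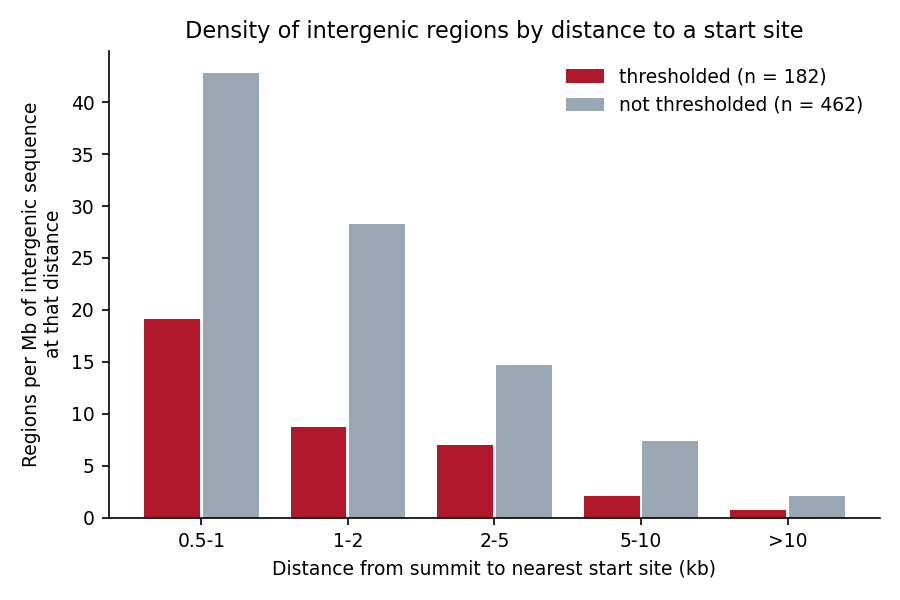
Intergenic regions per Mb of intergenic sequence (vertical axis) by distance from the summit to the nearest start site in kb (horizontal axis), for thresholded regions (n = 182) and regions that are not thresholded (n = 462). Density falls from 19.1 to 0.785 per Mb for the thresholded regions over the 5 distance bins, and from 42.8 to 2.12 for the others.

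Gaps between divergent genes, whose starts face each other across the gap, held 180 of the 644 regions, or 28.0% (24.6 to 31.5), and 20.4% of the intergenic length. Thresholded regions stood there in 31.3% (25 to 38.4). Gaps between genes of the same direction held 46.7% of the regions on 50.2% of the length, and gaps between convergent genes 25% on 25.6%. Since density is higher close to starts, and divergent gaps have a start on each side, these shares are not independent of distance. By arm, 3L held 181 regions or 20.2 per Mb, 3R 154 or 20.1, X 92 or 17.5, 2L 117 or 17.4, and 2R 96 or 12.9. The small chromosome 4 held 4.

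The median GC content of the summit window was 41.6% for thresholded and for other intergenic regions, with quartiles of 34.7 to 46.5 and 35.6 to 47.5. It was 38.6% for thresholded deep intronic and promoter-proximal windows. Outside the thresholded set it was 40.6% for deep intronic and 42.6% for promoter-proximal windows, and for all 10000 top regions 41.6%. All intergenic and all promoter-proximal windows differed by 0 points in the median (−0.99 to 0.99). Summits lay in an annotated transposable element in 0 of 182 thresholded regions, which allows a share of up to 1.65%, and in 3 of 462 others. The share over all 644, 0.466%, was higher than the 0.067% of deep intronic summits by 0.399 points (0.0443 to 1.29), and it rests on those 3 summits. Against the 0.17% of promoter-proximal summits the difference was 0.295 points, within counting error (−0.0434 to 1.19). Exonic summits outside the thresholded set lay in such an element in 2 of 399, or 0.501%. Summits lay in repeat-masked sequence in 105 of 644, or 16.3%, against 16.0% of promoter-proximal summits, a difference of 0.274 points (−2.55 to 3.46). The masked share was 13.7% of thresholded intergenic and 21.9% of thresholded deep intronic summits, a difference of −8.12 points (−13.3 to −1.75).

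Many intergenic regions stood in groups. Their nearest protein-coding genes numbered 434, of which 338 had 1 region and 17 had 5 or more. With neighbours joined up to 10000 bp apart, 21 groups of at least 5 regions held 147 of the 644, or 22.8%, while 292 regions stood alone.

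The largest group held 20 regions over 35632 bp, nearest to hry or to SrpRbeta, a gene for the signal recognition particle receptor. hry is hairy, which encodes a repressor of the bHLH class that acts in segmentation, the nervous system and metabolism, and it was the nearest coding gene of 14 regions. Of these 13 lay downstream of its start, up to 20900 bp away, and 1 lay upstream. The strongest, at chr3L:8696534-8696648, had a signal of 335.3 and ranks of 340 and 607 in replicates 2 and 3. Its nearest start of any kind was that of a non-coding RNA gene, 3939 bp away. This region overlapped another thresholded entry of 179.8. A further thresholded region 7166 bp downstream had 165 and ranks of 1963 and 1754, and overlapped a weaker entry of 62.83, so the 14 entries formed 12 separate sites. The other 11 had signals from 62.83 to 104.3, and none of the 14 held the CTCF core.

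foxo, the forkhead factor that acts when insulin signalling is low, had 7 regions at 6 separate sites, all upstream of it and between 751 and 8074 bp from its start. The strongest, at chr3R:14053394-14053833, had a signal of 136.9 and ranks of 4370 and 1548 in replicates 2 and 3. Its thresholded neighbour 4664 bp upstream had 118.7 and ranks of 4222 and 3749. All 7 overlapped one of the 10000 strongest regions of both replicates. Next to Rh5, which encodes a blue-sensitive opsin of the eye, 5 of 7 regions were thresholded. They lay on both sides of the gene within 3661 bp of its start, and the strongest had a signal of 216.7 and ranks of 1960 and 568.

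At scyl, an inhibitor of the TOR kinase under stress, 7 regions lay 4159 to 20121 bp downstream of the start and 1 was thresholded, with 126.3. The adjoining Dyro had 8 regions at 7 separate sites, 1 of them thresholded with 145.1. CG43245 had 8 entries at 5 separate sites, of which 3 entries were thresholded and the strongest had 204.2. Alp13, an alkaline phosphatase gene, was chosen after its values were seen, because it was the nearest protein-coding gene of 2 of the 20 strongest regions. Its 6 regions, 4 of them thresholded, filled the upstream gap between 1502 and 7311 bp. The strongest had 453.8 and 409.9 with ranks of 161 and 288, and of 173 and 512, in replicates 2 and 3. For these 2 the nearest start of any kind was that of a non-coding RNA gene, 697 and 3577 bp away.

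**Figure D5:**
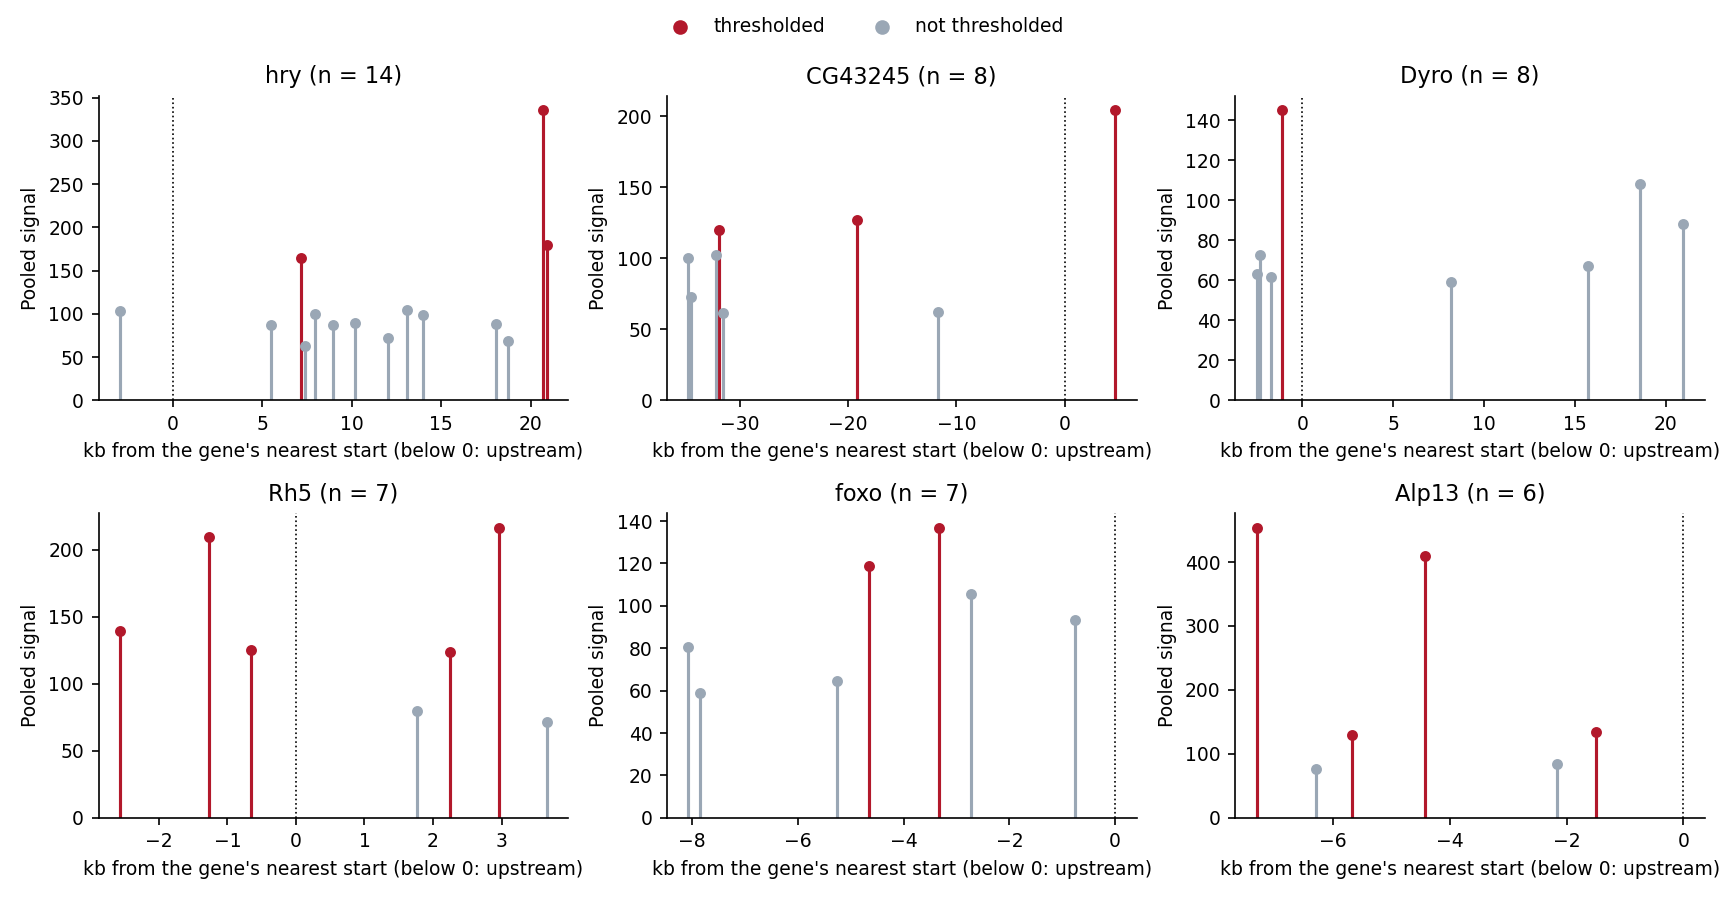
Pooled signal in the authors' units (vertical axes) of each intergenic region whose nearest protein-coding gene was hry, CG43245, Dyro, Rh5, foxo or Alp13. Horizontal axes give the distance in kb from the gene's nearest start, below 0 upstream, with a dotted line at the start. Thresholded regions and regions that are not thresholded have separate colours. The axes differ between panels. Regions of hry extend downstream and those of foxo and Alp13 upstream, up to signals of 335.3, 136.9 and 453.8.

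Gene lists were set against the nearest protein-coding gene of each region. All 10000 top regions, used for comparison, were 58.7% promoter-proximal, and the intergenic length nearest to each list was not measured. The shares are therefore descriptions of position and do not show that a list is favoured. Regulators of developmental patterning were nearest to 28 of 644 intergenic regions, or 4.35% (3.03 to 6.21), and to 0.690% of all 10000 top regions. The 28 make up 40.6% of the 69 top regions nearest to this list, 14 of them are those of hry, and they fell at 11 genes in all. The strongest beside noc and hry was that of dac, a retinal determination gene, 515 bp upstream with 139.3 and ranks of 2619 in replicate 2 and 2178 in replicate 3. Here 7 of the 28 were thresholded.

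The forkhead family had 12 regions, 5 of them thresholded, at 4 genes, or 1.86% (1.07 to 3.23) against 0.450% of all top regions. Apart from foxo, the strongest were those of fkh with 126.5, whose product shapes the salivary glands, ranked 3926th and 2254th in replicates 2 and 3, and of CHES-1-like with 124.1, ranked 4909th and 2019th. CHES-1-like had a further thresholded region of 111.1 that lay 15874 bp downstream of its nearest start. croc, the crocodile gene, had 1 region outside the set, at 61.96, and Crg-1 itself was the nearest coding gene of none. Insulin and TOR signalling had 11, or 1.71% (0.956 to 3.03) against 0.6% of all top regions, and 7 of the 11 are those of foxo. Thor, a translation inhibitor that foxo activates, had 2 with a highest signal of 77.9. In these lists the share is carried by few genes with many regions, and regions of the same gene share their surroundings.

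Chemosensory receptors and odorant-binding proteins had 11 regions at 6 genes, 61.1% of the 18 top regions nearest to this list. The gustatory receptor gene Gr93d had the strongest, 2483 bp upstream with 240.9 and ranks of 942 and 767, followed by the ionotropic receptor gene Ir68a with 136.7 and the odorant-binding protein gene Obp99b with 99.97. Sugar and lipid metabolism had 9 of 119, led by the hexokinase gene Hex-A with 153.5, then Ldh, lactate dehydrogenase, with 106.1 and Gapdh2, a glycolytic gene, with 93.86. Ecdysone response genes and nuclear receptors had 7 of 109, at Eip93F, Eip75B and Eip78C, with highest signals of 91.19, 86.04 and 75.38. None of these 7 was thresholded, against 28.3% of all 644 intergenic regions, and 7 is a small count.

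For the other lists the share of top regions that were intergenic can be read beside the 6.44% of all 10000. Cytoplasmic ribosomal proteins had 4 of 103, or 3.88%, led by RpS15Aa and by RpS23 with 249.2, and mitochondrial ribosomal proteins had 1 of 22, or 4.55%, mRpL52, with 203.1. Among circadian clock genes 1 of 87 top regions, or 1.15%, was intergenic, near mts, a catalytic subunit of protein phosphatase 2A, with 64.95. None of the 24 top regions nearest to neuronal genes and none of the 19 nearest to glutathione S-transferases was intergenic. The immune list had 3 of 44, or 6.82%, led by PGRP-SA, and also held CecB, an antimicrobial peptide gene, with 94.21.

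In the tissue lists, gut had 3 of 18, or 16.7%, with GATAe, a gut transcription factor, at 113, Sox21a at 91.96 and nub at 89.53. Muscle had 2 of 30, or 6.67%, Zasp52, a protein of the Z-disc, at 153.4 and Prm, paramyosin, at 83.13. Germ line had 2 of 29, or 6.90%, CycB, a cyclin of mitosis, at 301.5 and tej at 106.5, and glia had 1 of 28, or 3.57%, Indy, a citrate transporter gene, at 66.82. Cytochrome P450 genes had 3 of 30, Cyp28d1 at 122.2, Cyp6a13 at 110.8 and Cyp12e1 at 67.11, UDP-glycosyltransferases had 2 of 13 and cuticle proteins 2 of 7. Over all 19 lists, 91 of 644 intergenic regions or 14.1% were nearest to a listed gene, against 8.40% of all 10000 top regions. The nearest gene is a matter of position, and which gene a region acts on was not measured.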

How the data were processed

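The authors deposited lists of regions per replicate and for the pooled replicates, each with 30000 entries, the pooled one labelled as peaks and background. They also deposited a thresholded set of 3707, which per the deposited descriptions was derived by irreproducible discovery rate. The deposited signal is a value per entry in the authors' units, whose scaling is not stated, and served to rank entries within a list. The deposited −log10 q-value column was not used for ranking. Aligner and peak caller were not given in the sources used here. Lists on dm6 were used, with Ensembl release 115 annotation and Release 6 sequence. The 10000 entries of highest pooled signal were classified by summit. Overlap meant at least 1 bp. A summit window reached 50 bp to each side, and its flank, of equal size, was centred 500 bp towards lower coordinates. Words were counted on both strands. Shares have 95% Wilson intervals, differences between classes Newcombe intervals and paired differences Agresti-Min intervals, widened to 99.6% for 13 words where stated. The widening covers the 13 words and not the number of classes compared for each. It was applied unchanged to the looser forkhead form, which is not among the 13. Regions are not replicates, neighbours are not independent, depth is unknown, a count of 0 was limited by 3 counts, and no p-values were computed. Of 439 gene names written out, 11 matched by synonym and 8 matched no gene. Genes were named by rule: the 20 strongest thresholded sites, the 5 strongest others, up to 3 members per list, members at the limits, and the genes with most members, and further genes with a word at their summit were chosen after their values were seen. Members, lists and words were chosen with earlier results of these data known. The computation was tested on simulated data (Python 3.11.15, pandas 2.3.3, scipy 1.17.1).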

Additional observations from a re-analysis of the deposited data

How the results depend on the processing

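Of 96 recomputed values, 75 kept their direction and call or, for values with no call, stayed within the interval of the reported share or median or within 1.5 times the reported count. The CTCF excess of thresholded intergenic summits kept its direction, with an interval above 0, under all 13 alternatives against the flanks (6.19 to 13.7 points) and all 11 against deep introns (5.69 to 12 points), alternatives chosen after seeing the data. In 2 of these the number of entries changed, which leaves the thresholded set and both values as they were and does not bear on them. The forkhead core excess of 2.33 points had an interval that included 0 with a start distance of 1000 bp (1.92), with flanks at higher coordinates (1.71) and without replicate 2 (1.23, −0.547 to 2.99). Without replicate 3 it was 2.10 (0.155 to 4.04). The cause was not tested. With the top 5000 and top 20000 entries in place of 10000, members numbered 259 and 1550, the thresholded share was 70.3% and 11.7%, the share found in both replicates 73.0% and 61.2%, and the members near listed genes 38 and 206, as the number of entries fixes in part. The GC difference from promoter-proximal windows, 0 points, was 1.98 with the top 5000 and −1.98 with a start distance of 250 bp. The median start distance of 1770 bp was 975 and 2580 bp with start distances of 250 and 1000 bp and 2590 bp with protein-coding genes only. With 250 bp the thresholded share was 32.6% and the share in both replicates 69.8%. Overlap of at least 50% gave 60.1% in both. Leaving out a replicate gave a thresholded share of 31.9% to 33.5%, there by overlap, 618 to 652 members, and no share in both replicates. No paired analysis was possible because there is 1 group. Depth is unknown, and a count of 182 regions limits word shares to several points.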
